A study of Mus musculus with 12 samples.

Results

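Loss of the DNA glycosylase NEIL2 was measured here across 10 RNA libraries of mouse hippocampal area CA1, out of 12 libraries in the series. The 10 were chosen by their genotype label: 5 lack NEIL2 (3 of Neil2-/- and 2 of Neil1-/-Neil2-/- mice) and 5 have it (3 of WT and 2 of Neil1-/- mice). For the other 2 libraries the title and the genotype label disagree, and they entered only as a check. The study left 2 outlier samples out of its own group comparison, which used 2 Neil1-/- and 2 Neil1-/-Neil2-/- mice. The sources used here do not name those samples. All mice were males of 3 to 6 months on a C57BL/6N background, and the methods describe no intervention before the brains were taken. The methods state that the mutant lines were kept as separate breeding lines after backcrossing and that plain C57BL/6N mice served as WT, so genotype and line cannot be told apart. Tissue of dorsal CA1 was laser-captured from 8-µm sections, described in the study as the pyramidal layer and in its methods as all of CA1 outlined by hand, and each library came from 1 mouse. A single fit held a term for NEIL1 and a term for NEIL2, and the NEIL2 coefficient is the log2 fold change of mice without over mice with NEIL2, averaged over both Neil1 backgrounds.

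NEIL2 cuts oxidized bases out of DNA as the first step of base excision repair, and it can act on bases in single-stranded stretches such as those opened by transcription. NEIL1 belongs to the same family and shares part of its substrates. The CA1 pyramidal layer consists mainly of excitatory neurons, which carry a molecular clock and switch on immediate early genes when they fire.

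Neil2 (chr14:63182439-63194154, GRCm38) gave 0 counts in each of the 5 libraries without NEIL2. It gave 5, 5 and 5 counts in WT and 10 and 5 counts in Neil1-/- mice. Taking 3 counts as the floor for the whole group without NEIL2, the level was at least 9.90-fold lower there. Neil2 was too scarce to pass the filter on low counts. Neil1 gave 3.91 to 7.19 CPM (counts scaled to library size) in libraries without NEIL2 and 2.95 to 7.67 CPM in libraries with it. Its gene-level counts were higher in Neil1-/- mice (7.67 and 5.97 CPM) than in WT mice (2.95 to 4.44 CPM). They were also higher in Neil1-/-Neil2-/- mice (6.58 and 7.19 CPM) than in Neil2-/- mice (3.91 to 4.05 CPM). A count per whole gene cannot show which exons were removed, so it does not check the Neil1 genotype.

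The libraries held 19618923 to 21970180 counts, and 13982 genes were tested. One library stood apart: Neil1-/-Neil2-/- replicate 1 lay at 43.9 on the first principal component, against -21.1 to 10.9 for the other 9. Its 16 oligodendrocyte markers summed to 1395 CPM, against 560.8 to 772.9 CPM in the other libraries without NEIL2 and 572.9 to 759.4 CPM in those with it. The summed CA1 pyramidal neuron markers were 3255 to 3750 CPM without and 3341 to 3577 CPM with NEIL2, and none of the 13 tested was called. That library had the lowest CA1 pyramidal neuron markers of all 10 libraries and the highest sums of the 10 lists of glial, vascular, blood, choroid plexus, meningeal and thalamus and striatum markers. Its choroid plexus and ependyma markers summed to 462.4 CPM, against 83.84 to 252.4 CPM in the other 9, its blood markers to 274.4 CPM, against 66.96 to 153.6 CPM, and its astrocyte markers to 2331 CPM, against 1457 to 1914 CPM. Counts of called genes are therefore also given without that library. In bulk tissue, fewer cells of a type and less RNA per cell cannot be told apart.

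Of the genes tested, 209 (1.49%) had an adjusted p under 0.05 for the NEIL2 coefficient in edgeR's quasi-likelihood test and are named called genes below. Without NEIL2, 102 were higher (0.73%) and 107 were lower (0.765%). The median log2 fold change of all tested genes was 0.002. An unadjusted p under 0.05 was found for 2255 (16.1%) of all genes tested. That share is the background for counts at this level in the lists below. Most changes were small: 128 of the 209 had an absolute log2 fold change under 0.5, and 20 were above 1. The 5 libraries without NEIL2 did not overlap the 5 with it in 165 of the called genes, against 515 (3.68%) of all genes tested. The calls were spread unevenly over expression levels, with 16 in the lowest quartile of mean CPM and 73 and 69 in the 2 highest. Leaving out 1 library at a time gave 69 to 215 calls. The count was lowest without WT replicate 1, and it was 105 without Neil1-/-Neil2-/- replicate 1, 93 without Neil1-/-Neil2-/- replicate 2, 117 without Neil2-/- replicate 1 and 121 without Neil1-/- replicate 2. In all 10 of these fits 65 genes passed, and all 209 kept their direction. The last gene called had an adjusted p of 0.0491 and the first not called 0.0505.

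**Figure D1:**
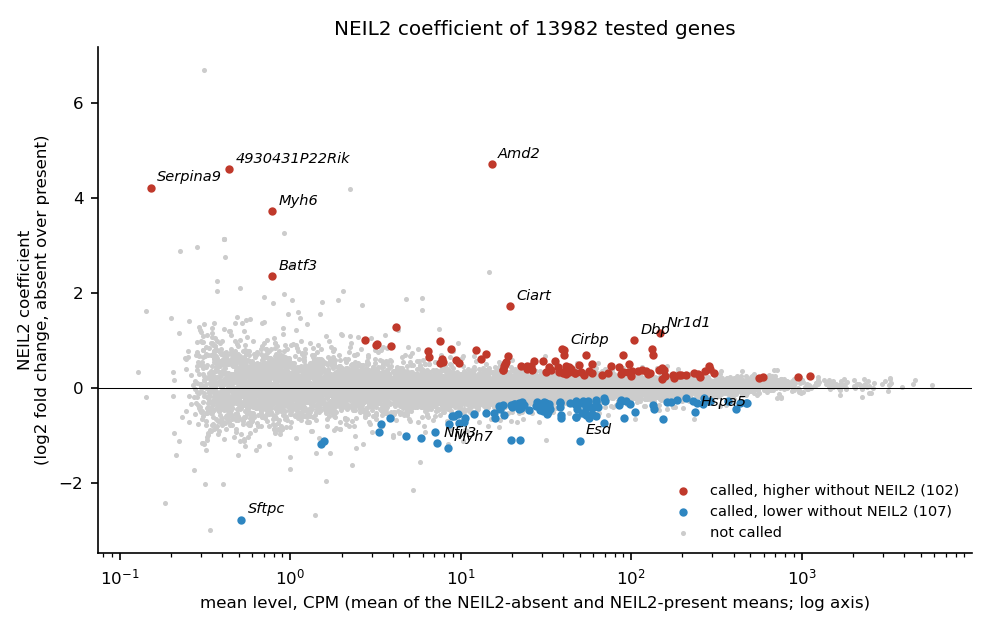
Mean level in CPM (log axis) against the NEIL2 coefficient (log2 fold change, NEIL2 absent over present) for the 13982 tested genes; red and blue points are the 102 higher and 107 lower called genes. The largest rises are of genes at low levels, except Amd2, while most called genes lie within 1 log2 unit of 0.

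On chromosomes other than that of Neil2, the smallest p were those of Ciart, Cirbp and Nr1d1, which are described with the clock and the cold-inducible genes. Batf3, a transcription factor of the AP-1 family, was at 0.79 to 2.80 CPM without NEIL2 and 0.15 to 0.44 CPM with it. Its log2 fold change of 2.36 ± 0.44 (SE; adjusted p = 0.02) rested on 136 counts without and 25 counts with NEIL2. The highest value was that of Neil1-/-Neil2-/- replicate 1.

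Among the other called genes with the highest and lowest coefficients, Klhl40, a kelch protein known from muscle, rose by 1.01 ± 0.18 and Gpr151, an orphan receptor, by 0.93 ± 0.15 on the log2 scale. Those that fell were Itga10, an integrin that binds collagen (-1.19 ± 0.25), Adam8, a membrane metalloprotease (-1.11 ± 0.25), the predicted gene Gm14434 (-1.09 ± 0.21), Tnfrsf25, a death receptor (-0.93 ± 0.18), and Cecr2, a chromatin factor with a bromodomain (-0.92 ± 0.17). The libraries of Gm14434 overlapped between the groups, and those of the other 6 did not. Serpina9, a serpin, had 30 counts without and 1 count with NEIL2, a ratio of 30.3 with a 95% exact interval of 5.04 to 1236 for counting error only. Of those 30 counts, 14 and 13 were in the 2 Neil1-/-Neil2-/- libraries.

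The fit assumes one NEIL2 effect for both Neil1 backgrounds, which can be set against the 2 separate comparisons. Neil2-/- against WT mice gave 42 calls (0.3%) and Neil1-/-Neil2-/- against Neil1-/- mice gave 64 (0.458%), and these comparisons share no library. Of the 42, 30 moved the same way in the other background, 28 of them with an unadjusted p under 0.05 there. Of the 64, 55 moved the same way, 38 with an unadjusted p under 0.05. Over all tested genes, 60.7% had the same sign in both. Of the 209 genes called for the coefficient, 155 were called in neither background alone, 30 in Neil1+/+ mice, 36 in Neil1-/- mice and 12 in both. All but 1 of the 209 had the same sign in both backgrounds. The coefficient itself selects for that, so it is a description. The 42 calls became 15 to 23 without any 1 of the 6 Neil2-/- or WT libraries. The 64 became 12 and 153 without Neil1-/-Neil2-/- replicate 1 and 2, 35 and 20 without Neil1-/- replicate 1 and 2, and 27 and 37 without Neil2-/- replicate 2 and 3.

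Among the 12 genes called in both backgrounds and for the coefficient were Ciart, Nr1d1, Cirbp, Pdia6, Esd, Bmp1, Myh6, Rgcc, Acss1, Glt8d2 and Tra2a. The last 3 of these were named after their values were seen. Acss1 makes acetyl-CoA in mitochondria and rose by 0.67 in Neil2-/- over WT and by 0.77 in Neil1-/-Neil2-/- over Neil1-/- mice on the log2 scale. Tra2a, a splicing factor, was at -0.45 and -0.70 in the same comparisons. Glt8d2, a putative glycosyltransferase, was at -0.53 and -0.67. The annotated ends of Glt8d2 and Tdg overlap, so reads there could be assigned to either. Under every one of 24 alternative fits, 5 genes stayed called: Ciart, Cirbp, Dbp, Esd and Nr1d1.

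**Figure D2:**
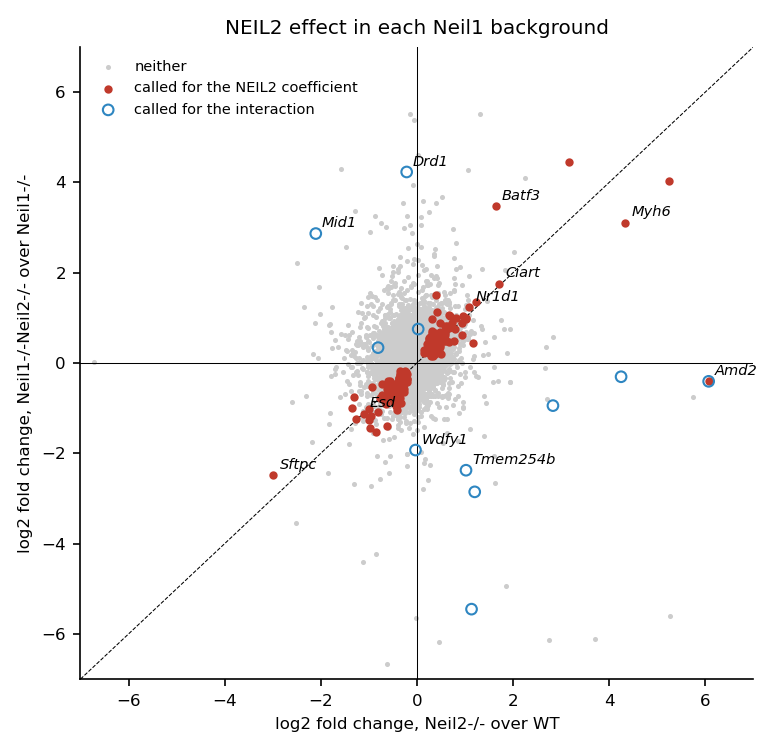
Log2 fold change of Neil2-/- over WT (x) against that of Neil1-/-Neil2-/- over Neil1-/- mice (y) for each tested gene, with the line of equal effect dashed; 10 genes outside 7 log2 units are not drawn. All genes called for the NEIL2 coefficient except Amd2 have the same sign on both axes, some of them away from the line, and Amd2 rose in Neil2-/- over WT and not in Neil1-/-Neil2-/- over Neil1-/- mice.

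In the list of output genes of the circadian clock 7 of 12 tested were called, and in the list of its core loop none of 15. The output list includes repressors that act on the clock itself, such as Ciart and Bhlhe41. The lists therefore do not part the clock from its outputs. In mammals CLOCK and ARNTL switch on genes with an E-box (CACGTG), among them the Period and Cryptochrome genes that feed back on them and output genes such as Dbp and Nr1d1. Of 13 clock output genes 12 were tested, and 6 were higher and 1 lower without NEIL2, against 0.73% higher and 0.765% lower over all genes, with a median log2 fold change of 0.28. Nfil3 was the lower one. For each mouse, no time of day at death is given in the sources used here.

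Ciart, a repressor of CLOCK and ARNTL (chr3:95878500-95882257, GRCm38), was at 23.9, 25.5 and 36.3 CPM in Neil2-/- and 31.0 and 33.1 CPM in Neil1-/-Neil2-/- mice, against 7.17, 11.1 and 7.95 CPM in WT and 8.91 and 10.04 CPM in Neil1-/- mice. The lowest library without NEIL2 was above the highest with it, and the log2 fold change was 1.73 ± 0.13 (adjusted p = 7.55e-05). Nr1d1, which encodes the repressor REV-ERB alpha (chr11:98767932-98775377), was at 226.1, 172.3 and 200 CPM in Neil2-/- and 205.2 and 214.3 CPM in Neil1-/-Neil2-/- mice, against 78.7, 125.0 and 78.4 CPM in WT and 93.3 and 83.8 CPM in Neil1-/- mice. Its groups did not overlap either, at a log2 fold change of 1.15 ± 0.12 (adjusted p = 0.001).

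Dbp, a PAR bZIP activator (chr7:45705100-45710203), was at 123.7, 124.9 and 166.0 CPM in Neil2-/- and 144.4 and 139.1 CPM in Neil1-/-Neil2-/- mice, against 48.6, 92.0 and 64.0 CPM in WT and 73.8 and 68.9 CPM in Neil1-/- mice. All libraries without NEIL2 were higher, by 1.01 ± 0.14 on the log2 scale (adjusted p = 0.0032). Nfil3, a repressor that binds the same sites as DBP (chr13:52967209-52982878), was at 4.15, 4.50 and 5.19 CPM in Neil2-/- and 4.32 and 4.19 CPM in Neil1-/-Neil2-/- mice, against 11.5, 6.48 and 9.07 CPM in WT and 12.5 and 10.6 CPM in Neil1-/- mice. It fell in every library without NEIL2, with a log2 fold change of -1.16 ± 0.16 (adjusted p = 0.0038).

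The other 3 that rose did so by less and without overlap between the groups. Usp2, a deubiquitinase, rose by 0.69 ± 0.13, Bhlhe41, a repressor that competes for E-boxes, by 0.43 ± 0.08, and Nr1d2, the paralogue of Nr1d1, by 0.34 ± 0.06 on the log2 scale (adjusted p = 0.023, 0.02 and 0.015). Tef and Hlf, the relatives of Dbp, gave -0.17 ± 0.08 and -0.08 ± 0.06 and were not called (adjusted p = 0.3 and 0.54; both were named after their values were seen). None of the 15 core clock loop genes tested was called, at a median of -0.03, and DESeq2 called 1 higher. At an unadjusted p under 0.05, which 16.1% of all genes had, 3 were higher and 2 lower. Per1 gave 0.40 ± 0.10 (adjusted p = 0.079), Cry1 -0.41 ± 0.14 (adjusted p = 0.16), Cry2 0.16 ± 0.07 (adjusted p = 0.25) and Npas2 0.32 ± 0.13 (adjusted p = 0.23). Arntl, Clock and Per2, added after their values were seen, gave -0.15 ± 0.09, -0.04 ± 0.06 and -0.03 ± 0.06.

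Each background was also read alone for the clock output genes. The median of the list was 0.31 in Neil2-/- over WT and 0.24 in Neil1-/-Neil2-/- over Neil1-/- mice, and 3 members were called higher in each. Ciart and Nr1d1 were called in both, Dbp in Neil2-/- over WT mice (1.02, against 0.99 with an adjusted p of 0.097 in Neil1-/-Neil2-/- over Neil1-/- mice) and Usp2 in Neil1-/-Neil2-/- over Neil1-/- mice (1.12, against 0.41 in Neil2-/- over WT mice). Nfil3 was called lower in Neil1-/-Neil2-/- over Neil1-/- mice (-1.45, against -0.97 in Neil2-/- over WT mice). None of the 12 was called for the interaction, though Usp2 and Tef had an unadjusted p under 0.05 for it. For the NEIL1 coefficient none of the 12 was called. Without WT replicate 1 the list had 3 higher members, and without Neil1-/-Neil2-/- replicate 1 it had 4.

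**Figure D3:**
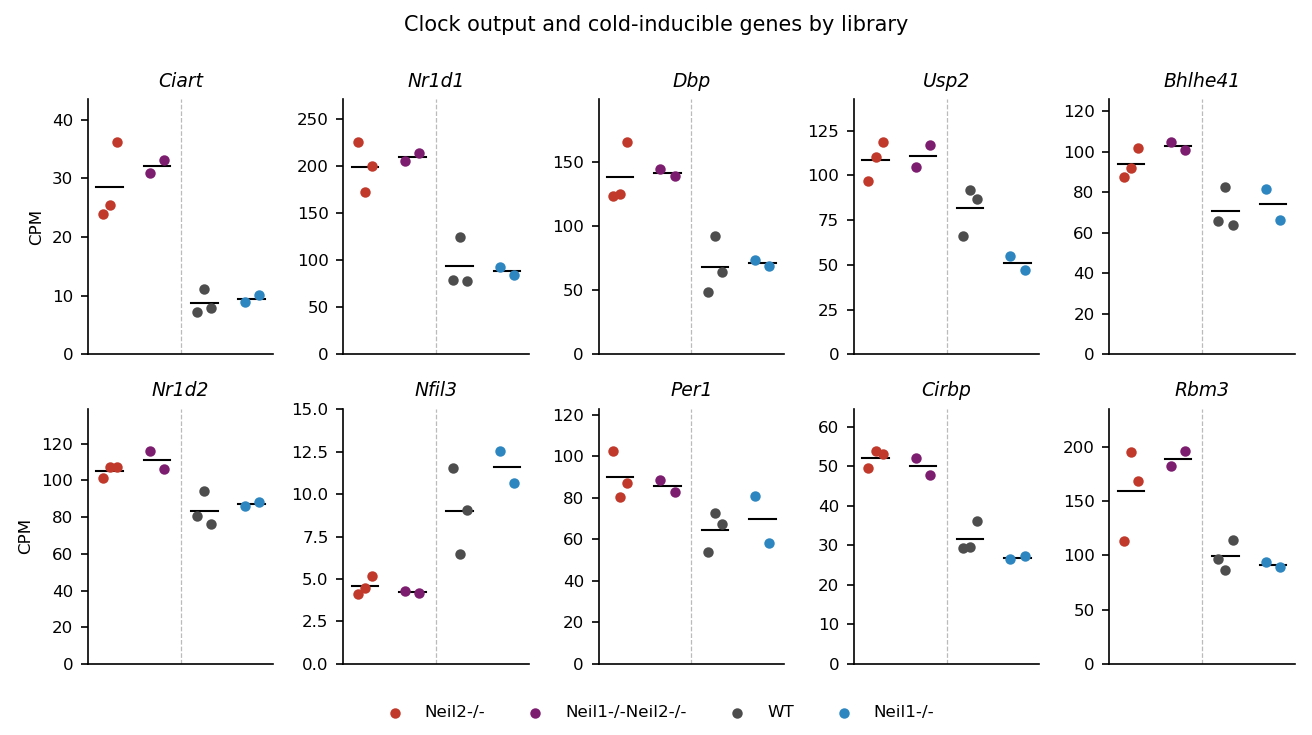
CPM of 10 genes in each library (points) with the genotype mean (bar), with genotypes without NEIL2 left of the dashed line and those with it right. Ciart, Nr1d1 and Dbp are higher in all 5 libraries without NEIL2 and Nfil3 is lower, while Per1 and Rbm3 overlap between the groups.

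The E-box was looked for, on both strands, in the 250 bases before the start site of each gene in RefSeq's promoter table (GRCm38.p6). It was found in 3 of 11 matched clock output genes, namely Ciart, Bhlhe41 and Tef, and in 1082 (9.75%) of 11093 matched tested genes. Nr1d1, Dbp, Usp2, Nr1d2 and Nfil3 had none in this window. The windows of Usp2 (chr9:44084670-44084919) and Nfil3 (chr13:52981040-52981289) lie before a start site inside the annotated gene. For these genes the sequence before the outer end of the gene was not searched. The D-box bound by DBP and NFIL3, searched as TTATGTAA or TTACGTAA on both strands, was in none of the 11 clock output genes and in 0.793% of the tested genes. The windows of both called genes with an E-box are shown 5′ to 3′, ending at the base before the start site, with the E-boxes in capitals. Ciart lies on the minus strand at chr3:95882229-95882478 and holds 3, and Bhlhe41 lies on the minus strand at chr6:145865421-145865670 and holds 1.
Ciart: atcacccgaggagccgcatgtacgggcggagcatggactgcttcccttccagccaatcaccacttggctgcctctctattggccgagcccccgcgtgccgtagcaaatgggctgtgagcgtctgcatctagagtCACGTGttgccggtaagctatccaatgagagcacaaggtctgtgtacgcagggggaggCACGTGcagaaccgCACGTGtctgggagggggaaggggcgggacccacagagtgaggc
Bhlhe41: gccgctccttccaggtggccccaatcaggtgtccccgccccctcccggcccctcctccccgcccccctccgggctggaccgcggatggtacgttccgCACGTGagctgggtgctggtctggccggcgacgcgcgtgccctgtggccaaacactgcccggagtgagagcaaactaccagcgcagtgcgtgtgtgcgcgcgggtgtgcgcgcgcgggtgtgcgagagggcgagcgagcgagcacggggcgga

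Cold-inducible RNA-binding proteins bind mRNA and rise when temperature falls, also with the daily rhythm of body temperature. Of 5 such genes tested 2 were called, both higher, against 0.73% higher over all genes, and the median was 0.20. Cirbp (chr10:80165990-80172786) was at 49.5, 53.7 and 53.1 CPM in Neil2-/- and 52.0 and 47.9 CPM in Neil1-/-Neil2-/- mice, against 29.2, 29.5 and 36.0 CPM in WT and 26.5 and 27.2 CPM in Neil1-/- mice. The groups were apart, by 0.79 ± 0.07 on the log2 scale (adjusted p = 0.00032). Rbm3 (chrX:8138975-8145880) was at 113.4, 194.7 and 168.4 CPM in Neil2-/- and 181.9 and 195.6 CPM in Neil1-/-Neil2-/- mice, against 96.3, 86.2 and 114.0 CPM in WT and 93.9 and 88.8 CPM in Neil1-/- mice. Here Neil2-/- replicate 1 lay within the range of the mice with NEIL2, and the log2 fold change was 0.83 ± 0.13 (adjusted p = 0.0082). Both were also called in each of the fits that left out 1 library.

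Chaperones moved in the opposite direction. They fold proteins in the cytosol or, as BiP and the protein disulfide isomerases do, in the endoplasmic reticulum (ER), where the unfolded protein response controls them. Of 29 heat shock and chaperones genes tested 9 were lower without NEIL2 and none was higher, against 0.765% lower over all genes. The median was -0.23, 27 had a negative coefficient, and 20 of them an unadjusted p under 0.05, against 16.1% of all genes in either direction. The median was -0.21 in Neil2-/- over WT and -0.30 in Neil1-/-Neil2-/- over Neil1-/- mice, with 1 member called lower in each. For the NEIL1 coefficient the median was 0.05.

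Hspa5, which encodes BiP, the main chaperone of the ER (chr2:34772090-34776529), was at 186.0, 193.5 and 187.7 CPM in Neil2-/- and 191.4 and 210.5 CPM in Neil1-/-Neil2-/- mice, against 315.7, 253.1 and 235.6 CPM in WT and 291.1 and 288.4 CPM in Neil1-/- mice. No library without NEIL2 reached the lowest with it, and the log2 fold change was -0.51 ± 0.07 (adjusted p = 0.0031). Pdia6, a protein disulfide isomerase (chr12:17266589-17284785), was at 87.4, 87.1 and 82.3 CPM in Neil2-/- and 80.1 and 97.6 CPM in Neil1-/-Neil2-/- mice, against 130.4, 113.8 and 112.2 CPM in WT and 129.4 and 130.4 CPM in Neil1-/- mice. It was lower in all 5, by -0.50 ± 0.06 (adjusted p = 0.0026).

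The other ER proteins of the list that fell were Pdia4 (-0.47 ± 0.10), the secreted protective factor Manf (-0.41 ± 0.08), the calcium-binding chaperone Calr (-0.31 ± 0.05) and Hsp90b1, the ER form of HSP90 (-0.28 ± 0.06). Pdia3, which is not in the list and was named after its values were seen, gave -0.32 ± 0.04 (adjusted p = 0.0033). In the cytosol, Chordc1, a partner of HSP90, gave -0.38 ± 0.08, Hsph1, an HSP110 chaperone, -0.28 ± 0.06, and Stip1, which links HSP70 to HSP90, -0.28 ± 0.04. The adjusted p of these 3 were 0.036, 0.034 and 0.0094. The groups overlapped for Pdia4 and Chordc1. The number called rested on single libraries: 4 remained lower without WT replicate 1 and likewise without Neil1-/-Neil2-/- replicate 1, Neil1-/-Neil2-/- replicate 2, Neil2-/- replicate 2, Neil1-/- replicate 1 or Neil1-/- replicate 2, and 5 without Neil2-/- replicate 1 or Neil2-/- replicate 3. The list's median stayed between -0.22 and -0.28 in these fits.

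The ER stress element, through which ATF6 acts on chaperone genes, was searched as CCAAT and CCACG 9 bases apart on both strands in the same 250-base windows. It was in 18 (0.162%) of 11093 matched tested genes and in 5 of 23 matched chaperone genes. Of 161 matched called genes 4 had it, and all 4 were called chaperone genes: Hspa5, Pdia6, Hsp90b1 and Calr. These were 4 of 8 matched called chaperone genes, and Pdia4 had none in this window. The other chaperone gene with the element was not called. The windows of the 4 called genes are shown because these genes fell together, with the element in capitals. Hspa5 lies at chr2:34771840-34772089 and Pdia6 at chr12:17266339-17266588 on the plus strand. Hsp90b1 at chr10:86705445-86705694 and Calr at chr8:84846932-84847181 lie on the minus strand, and Hsp90b1 holds 2 elements.
Hspa5: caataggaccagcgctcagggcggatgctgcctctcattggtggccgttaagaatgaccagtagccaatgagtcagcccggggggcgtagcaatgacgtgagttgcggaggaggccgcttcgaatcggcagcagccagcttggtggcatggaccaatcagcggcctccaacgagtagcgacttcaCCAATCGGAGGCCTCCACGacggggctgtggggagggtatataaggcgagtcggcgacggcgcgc
Pdia6: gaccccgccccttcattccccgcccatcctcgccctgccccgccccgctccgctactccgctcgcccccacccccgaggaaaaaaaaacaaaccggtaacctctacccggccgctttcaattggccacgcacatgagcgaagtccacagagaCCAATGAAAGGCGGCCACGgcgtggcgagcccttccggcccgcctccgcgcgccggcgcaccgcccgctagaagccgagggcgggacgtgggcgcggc
Hsp90b1: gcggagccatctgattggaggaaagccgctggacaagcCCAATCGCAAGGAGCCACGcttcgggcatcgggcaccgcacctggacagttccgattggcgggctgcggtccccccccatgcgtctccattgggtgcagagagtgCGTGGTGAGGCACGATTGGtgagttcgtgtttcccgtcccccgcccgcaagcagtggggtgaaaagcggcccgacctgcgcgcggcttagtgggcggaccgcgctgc
Calr: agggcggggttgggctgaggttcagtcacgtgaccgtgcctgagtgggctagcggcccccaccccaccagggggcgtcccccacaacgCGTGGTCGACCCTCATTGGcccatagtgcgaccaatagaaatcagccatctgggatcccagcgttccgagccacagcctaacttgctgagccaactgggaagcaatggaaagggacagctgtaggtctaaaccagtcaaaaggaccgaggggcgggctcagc

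Immediate early genes, which neurons transcribe within minutes of firing, were lower where called. Of 36 tested 5 were lower and none was higher, against 0.765% lower over all genes. The median was -0.22 and 27 had a negative coefficient. At an unadjusted p under 0.05 there were 16 lower and 4 higher, against 16.1% of all genes in either direction. Nr4a2, which encodes the orphan receptor NURR1 (chr2:57106830-57124003), was at 49.8, 52.8 and 56.7 CPM in Neil2-/- and 43.8 and 54.5 CPM in Neil1-/-Neil2-/- mice, against 98.8, 72.7 and 76.3 CPM in WT and 99.0 and 85.0 CPM in Neil1-/- mice. The groups were apart, at a log2 fold change of -0.74 ± 0.10 (adjusted p = 0.0027). Its paralogue Nr4a3 gave -0.36 ± 0.07, the zinc finger factor Klf10 -0.53 ± 0.12, Ier5 -0.41 ± 0.09 and Egr3 -0.29 ± 0.05 (adjusted p = 0.029, 0.045, 0.039 and 0.02). Klf10 overlapped between the groups, and Egr3 lies 6.89 Mb from Neil2.

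The members used most as activity markers varied more between mice. Fos was at 1.21, 1.95 and 5.38 CPM in Neil2-/- and 2.01 and 3.99 CPM in Neil1-/-Neil2-/- mice, against 9.89, 4.11 and 8.65 CPM in WT and 16.4 and 4.22 CPM in Neil1-/- mice. Neil2-/- replicate 3 lay within the range with NEIL2, and the log2 fold change of -1.56 ± 0.43 was not called (adjusted p = 0.094). Arc gave -0.42 ± 0.14, Nr4a1 -0.36 ± 0.17 and Npas4 -0.31 ± 0.17 (adjusted p = 0.16, 0.34 and 0.38). These 4 were named after their values were seen. The immediate early genes rested on single libraries, with 1 called lower without WT replicate 1, without Neil1-/-Neil2-/- replicate 1 and without Neil2-/- replicate 1, 2 without Neil2-/- replicate 3 or Neil1-/-Neil2-/- replicate 2, and 3 without Neil1-/- replicate 1.

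**Figure D4:**
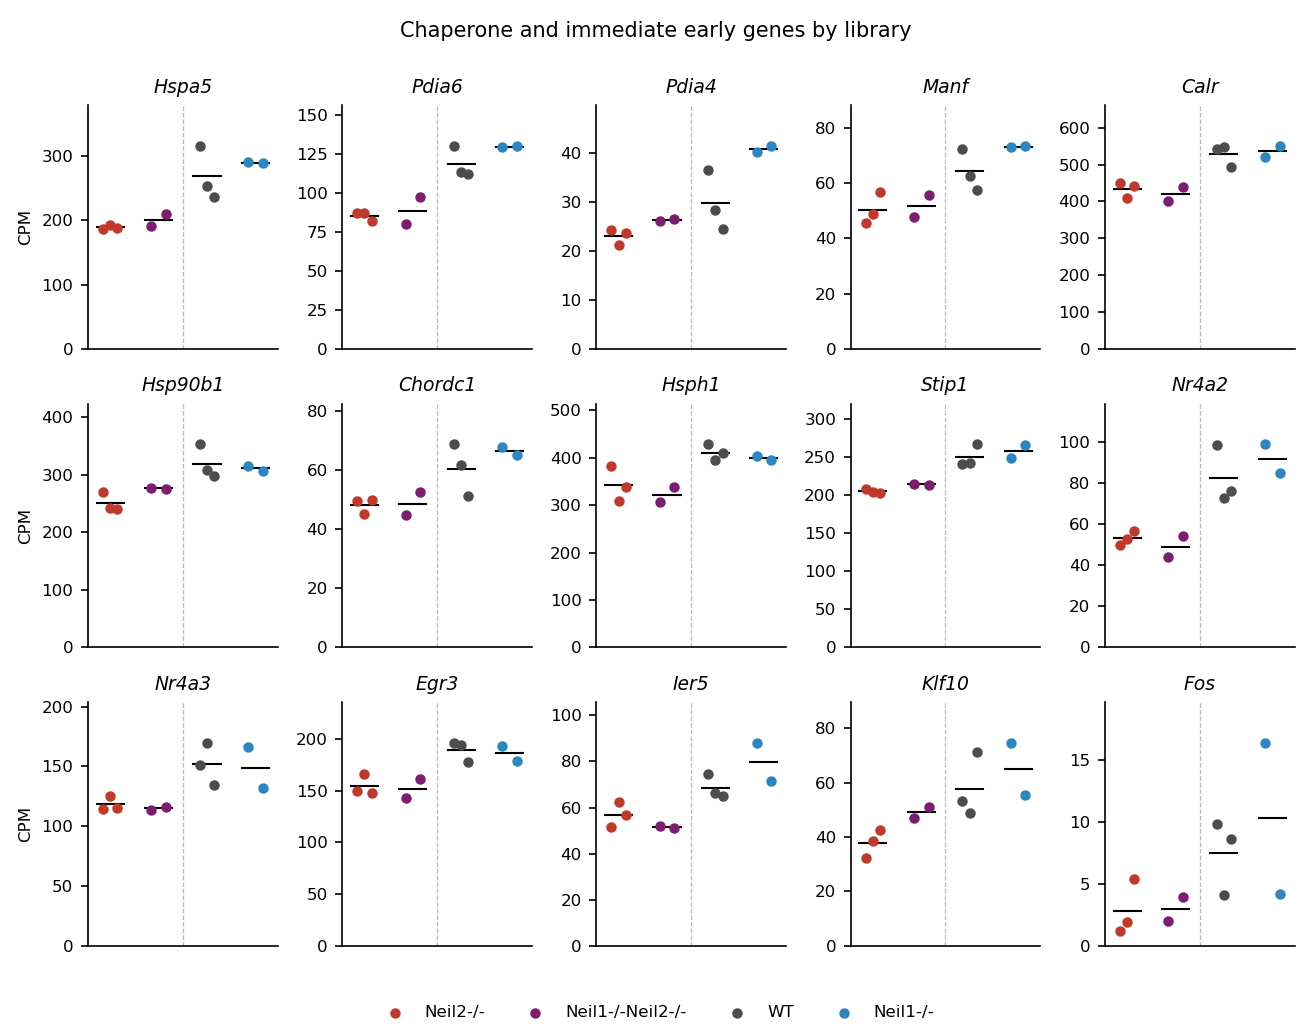
CPM of 9 chaperone and 6 immediate early genes in each library (points) with the genotype mean (bar), with genotypes without NEIL2 left of the dashed line. Hspa5, Pdia6 and Nr4a2 are lower in all 5 libraries without NEIL2, while Pdia4, Chordc1, Klf10 and Fos overlap.

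In the lists of receptor subunits, postsynaptic scaffold and potassium channels 4 genes were called, all higher, against 0.73% higher over all genes. Gabra4, a GABA-A receptor subunit found outside synapses, rose by 0.26 ± 0.05 on the log2 scale, and was the only one called of 12 such subunits. Dlgap1, a scaffold of the postsynaptic density, rose by 0.24 ± 0.05, as 1 of 20 in its list, and its libraries overlapped between the groups. Of 56 potassium channels and partners 2 rose, the inward rectifier Kcnj4 by 0.50 ± 0.07 (adjusted p = 0.0038) and Kcnip3, a calcium sensor that binds Kv4 channels, by 0.36 ± 0.07 (adjusted p = 0.02). Kcnj4 was at 107.9 to 130.0 CPM without and 71.8 to 93.1 CPM with NEIL2, with no overlap. None of the 7 NMDA receptor subunits and none of the 9 AMPA and kainate receptor subunits was called, with 1 and 3 at an unadjusted p under 0.05, and DESeq2 called 0 and 1.

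The DNA repair lists held no called gene in edgeR. Of 9 DNA glycosylases tested 2 had an unadjusted p under 0.05, both lower, against 16.1% of all genes in either direction. DESeq2 and voom called 0 of the 9. Tdg, which removes thymine from G-T mismatches and oxidized 5-methylcytosine, gave -0.11 ± 0.05 (adjusted p = 0.31), and Smug1, a uracil glycosylase, gave -0.18 ± 0.07 (adjusted p = 0.24). Ogg1, the main glycosylase for 8-oxoguanine, gave -0.15 ± 0.13 (adjusted p = 0.62), and Mpg, which removes alkylated bases, 0.13 ± 0.09 (adjusted p = 0.52). Of 21 genes of later base excision repair 2 were higher and 2 lower at an unadjusted p under 0.05, and DESeq2 called 1 higher and 2 lower. Among 14 p53 targets 2 were lower at that level, and DESeq2 called 0. Of 31 antioxidant genes, Prdx6 was higher (0.24 ± 0.05) and Esd lower. The 67 genes of oxidative phosphorylation and the 77 of cytosolic ribosomal proteins had no call in edgeR or DESeq2, with 3 of each at an unadjusted p under 0.05, and 75 of the 77 had a negative coefficient, at a median of -0.09.

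Single members of other lists were called. Klf9, a glucocorticoid-induced zinc finger factor, rose by 0.28 ± 0.06 as 1 of 18 corticosteroid targets. Of these 18, 8 were higher at an unadjusted p under 0.05, against 16.1% of all genes in either direction. Irf3, a factor of the interferon response, was lower, at -0.55 ± 0.11. Cldn5, the tight junction protein of brain endothelium, gave -0.77 ± 0.12 (adjusted p = 0.0082), whereas the other 10 endothelial markers were not called and the list summed to 75.9 to 111.6 CPM without and 80.2 to 89.9 CPM with NEIL2. Ppp1r1b, which encodes DARPP-32, rose by 0.46 ± 0.06 for NEIL2 and by 0.48 for NEIL1 and was the one gene called for both coefficients. It is one of 17 thalamus and striatum markers, which summed to 193.9 to 391.8 CPM without and 176.7 to 258.7 CPM with NEIL2, and no marker of that list was at 0 in all 10 libraries. The part of these cells in the result was not tested. None of the 16 oligodendrocyte markers was called, at a median of 0.23, or 0.01 without Neil1-/-Neil2-/- replicate 1.

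Called genes were more frequent around Neil2 itself on chromosome 14. Within 20 Mb of Neil2, 34 of 265 tested genes were called (12.8%), 14 higher and 20 lower, against 174 of 13430 (1.3%) on other chromosomes. Beyond 20 Mb on the same chromosome 1 of 231 was called, Nr1d2, at 45.0 Mb. The share was 3.39% (2 of 59) within 5 Mb, 14.5% (17 of 117) from 5 to 10 Mb and 16.9% (15 of 89) from 10 to 20 Mb. Knockout lines can keep sequence of the stem cell strain around the target. The study's methods describe such regions left in its lines after backcrossing, and its mutation analysis set them aside. Their positions are not given in the sources used here. NEIL2 loss and linked alleles cannot be told apart for these genes. Within the same 20 Mb, 1 gene was called for the NEIL1 coefficient. The number was 17 to 33 in the fits that left out libraries, with 21 without Neil2-/- replicate 1 and without either Neil1-/-Neil2-/- library, and 18 without WT replicate 1.

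The strongest was Esd, an esterase that releases formate from S-formylglutathione (chr14:74732151-74750765, 11.6 Mb from Neil2). It was at 27.96, 27.97 and 35.3 CPM in Neil2-/- and 33.9 and 32.5 CPM in Neil1-/-Neil2-/- mice, against 65.0, 60.9 and 70.3 CPM in WT and 68.5 and 75.8 CPM in Neil1-/- mice. The levels fell into 2 separate ranges, at a log2 fold change of -1.11 ± 0.08 (adjusted p = 2.75e-05). Bmp1, the protease that trims procollagen (7.31 Mb), was at 26.5 to 44.4 CPM without and 50.9 to 63.9 CPM with NEIL2, and gave -0.62 ± 0.08 (adjusted p = 0.0026). Its neighbour Sftpc, a surfactant protein of the lung (7.33 Mb), had 13 counts without and 94 with NEIL2, and gave -2.78 ± 0.36.

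The cardiac myosin heavy chains Myh6 and Myh7 are adjacent paralogues that share sequence, 8.23 and 8.21 Mb from Neil2, and moved in opposite directions. Myh6 was at 1.31, 1.80 and 1.13 CPM in Neil2-/- and 1.18 and 1.87 CPM in Neil1-/-Neil2-/- mice, against 0.05, 0.05 and 0.09 CPM in WT and 0.14 and 0.20 CPM in Neil1-/- mice. This rise of 3.72 ± 0.37 on the log2 scale (adjusted p = 0.00074) rests on 150 estimated counts without and 12 with NEIL2. Myh7 was at 4.24, 4.25 and 4.94 CPM in Neil2-/- and 7.07 and 4.19 CPM in Neil1-/-Neil2-/- mice, against 13.2, 9.72 and 9.68 CPM in WT and 7.39 and 19.1 CPM in Neil1-/- mice, and fell by 1.26 ± 0.23 on the log2 scale (adjusted p = 0.018). Estimated counts can be split between such copies in either direction.

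The transcript 4930431P22Rik (13.6 Mb) had 87 counts without and 3 with NEIL2, a ratio of 29.3 with a 95% exact interval of 9.70 to 144.8. Rgcc, a regulator of the cell cycle (16.1 Mb), rose by 0.99 ± 0.12, Lacc1, an enzyme of purine metabolism in macrophages (13.8 Mb), by 0.88 ± 0.13, and Klhl33, a kelch protein, by 1.28 ± 0.23 on the log2 scale. Lower were Gfra2, the neurturin co-receptor (-1.09 ± 0.19), Slc39a2, a zinc transporter (-1.01 ± 0.17), Slc25a37, the mitochondrial iron importer (-0.72 ± 0.09), Lgi3, a secreted protein related to LGI1 (-0.64 ± 0.09), Fndc3a (-0.58 ± 0.08), and Ppp3cc, a catalytic subunit of calcineurin (-0.41 ± 0.06). None of these 9 overlapped between the groups.

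Other called genes near Neil2 had absolute coefficients of 0.60 or less. Hnrnpc, an abundant RNA-binding protein, gave -0.34 ± 0.05, Mettl3, the enzyme that writes m6A on mRNA, -0.33 ± 0.07, and Acin1, a splicing factor, -0.37 ± 0.08, and Acin1 alone of these overlapped between the groups. Armh4 (0.56 ± 0.07), Peli2, a ubiquitin ligase (0.60 ± 0.11), and the amino acid transporter Slc7a8 (0.37 ± 0.06) were higher. The closest neighbour tested was Fdft1, squalene synthase, which lies next to Neil2 (0.025 Mb between midpoints) and rose by 0.31 ± 0.07 (adjusted p = 0.04), and the other call within 5 Mb was Elp3, the catalytic subunit of Elongator, which rose by 0.28 ± 0.05 (adjusted p = 0.014).

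**Figure D5:**
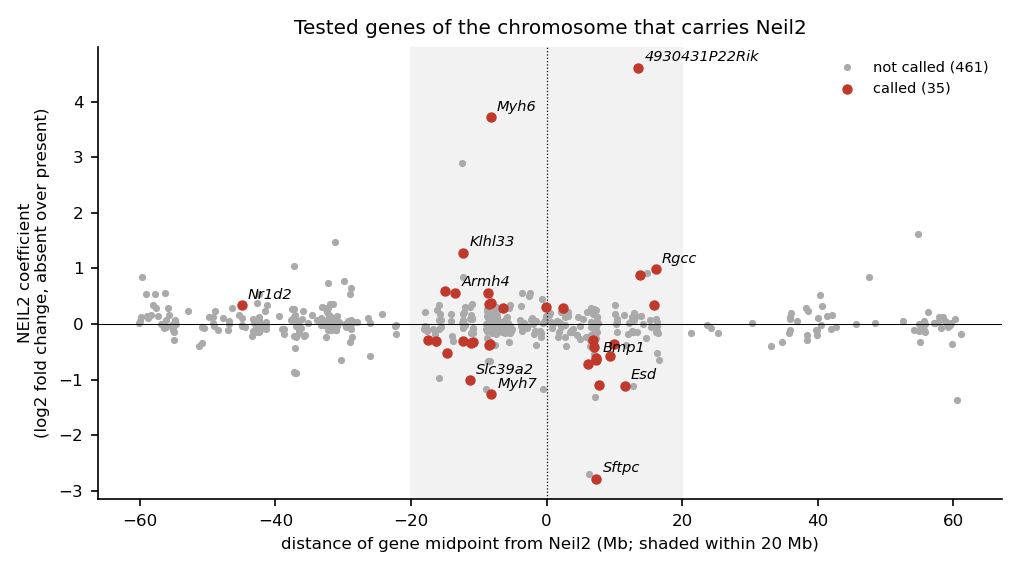
Distance of each tested gene's midpoint from Neil2 in Mb (x, shaded within 20 Mb) against its NEIL2 coefficient (log2 fold change, y) for 496 genes of chromosome 14. Of the 35 called genes 34 lie in the shaded part, and Esd, Myh6, Sftpc and 4930431P22Rik have large coefficients there.

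Calls for the NEIL2 coefficient were also set beside those for the other terms. The NEIL1 coefficient gave 47 calls (0.336%), of which 1 was also called for NEIL2, against 1.49% of all genes tested. Its calls were 28 without WT replicate 2 and 79 without Neil1-/- replicate 1. The interaction of NEIL1 and NEIL2 gave 13 calls (0.093%), or 41 without Neil1-/-Neil2-/- replicate 2. Of the 13, 1 was also called for the coefficient, Amd2, a retrogene copy of an enzyme of polyamine synthesis that shares sequence with Amd1. Amd2 was at 44.3, 49.2 and 52.6 CPM in Neil2-/- and 0.34 and 1.13 CPM in Neil1-/-Neil2-/- mice, against 0.92, 0.87 and 0.37 CPM in WT and 0.86 and 1.10 CPM in Neil1-/- mice. It was high in the 3 Neil2-/- mice alone, so its coefficient of 4.71 ± 0.77 averages unlike effects, and the difference between backgrounds had an adjusted p of 0.00024.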

How the data were processed

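RNA of laser-captured CA1 was read as 100-bp pairs on BGISEQ-500. The authors deposited expected counts per gene, which their sequencing company estimated with RSEM after Bowtie2 mapping to GRCm38. The submitters' processing notes also name HISAT, StringTie and GATK, without versions. The table was not normalized and 87.8% of its values are whole. Values were rounded for testing. Of 18558 genes, 18429 matched a RefSeq symbol (GRCm38.p6) by gene number.

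Libraries were grouped by genotype label. Counts were tested with edgeR 4.0.16 in R 4.3.3: filterByExpr (minimum count 10), TMM scaling, glmQLFit on the terms NEIL1 and NEIL2 over 10 libraries, glmQLFTest, Benjamini-Hochberg adjustment over 13982 genes, threshold 0.05. SE is the log2 fold change over the square root of F. The effects within each background, and the interaction, came from a fit with 1 mean per genotype. CPM are TMM-scaled. Whether libraries of a genotype come from separate litters is not stated, and the p-values measure the spread between these mice. The precision at 19618923 to 21970180 counts per library limits genes with few counts, and intervals and floors cover counting error only.

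The genes, 38 gene lists and tests were chosen with earlier results of these data known. Genes were named by a rule: Neil1 and Neil2, the 12 highest and 12 lowest called coefficients, the 10 smallest p, called list members, the 4 smallest p of a list, called genes within 20 Mb of Neil2 and called genes also called for the interaction. One gene that the rule names is not reported here. Lists are described by counts and medians. Alternatives were no filter, scaling by median ratios, robust fitting, a fit without the abundance trend, DESeq2 1.42.0 with and without the filter, limma 3.58.1 voom, no NEIL1 covariate, an interaction term, a replicate block, 12 libraries by title, libraries left out, either background alone, a threshold of 0.1, and windows of 5 and 40 Mb. List and position counts under the other fits were added after the data were seen. The fit was tested on simulated data. Figures used matplotlib 3.10.9.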

Additional observations from a re-analysis of the deposited data

Results flagged for a closer look

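Among the genes named, 10 had 1 library far from the other 4 of its NEIL2 group by the gap to its neighbour over the range of the group, of 174 groups tested. The cut-off flags about 1 in 20 groups of independent values with 1 normal spread. These groups mix genotypes and their genes were chosen partly by their values, so the part of chance was not tested. In libraries without NEIL2, Neil1-/-Neil2-/- replicate 1 was highest for Myh7 (7.07 CPM, others 4.19 to 4.94), Batf3 (2.80 CPM, others 0.79 to 1.13) and Cldn5 (8.15 CPM, others 5.63 to 6.24) and lowest for Tdg (54.9 CPM, others 60.5 to 61.6). Neil2-/- replicate 1 was highest for Slc7a8 (128 CPM, others 108.0 to 112.4), replicate 2 for Nr4a3 (125 CPM, others 113.5 to 116.4) and replicate 3 for Kcnj4 (130 CPM, others 107.9 to 110.7). In libraries with NEIL2, Neil1-/- replicate 2 was highest for Rgcc (6.43 CPM, others 4.38 to 4.93), WT replicate 2 for Kcnip3 (56.8 CPM, others 45.8 to 48.4), and Neil1-/- replicate 1 for Serpina9 (0.0476 CPM, others 0).

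The NEIL2 effect differed between the Neil1 backgrounds for 13 genes by the interaction test in edgeR (log2 fold change of Neil1-/-Neil2-/- over Neil1-/- minus that of Neil2-/- over WT). Positive values were those of Mid1 with 4.97 (adjusted p = 9.27e-06), Npy with 1.15 (0.0034), Drd1 with 4.44 (0.049) and Ndn with 0.73 (0.04). Drd1 was at 10.4 and 4.48 CPM in Neil1-/-Neil2-/- mice, against 0.53 and 0.22 CPM in Neil1-/- mice. It is one of the thalamus and striatum markers, which summed to 391.8 and 275.2 CPM in Neil1-/-Neil2-/- mice, the highest of the 10 libraries, against 258.7 and 184.3 CPM in Neil1-/- mice, and their part in the result was not tested. The other 9 were negative. Wdfy1 had -1.90 (adjusted p = 1.92e-05), being at 8.73 and 9.31 CPM in Neil1-/-Neil2-/- mice, against 34.1 and 34.6 CPM in Neil1-/- mice. Amd2 had -6.48, Tmem254a -4.06, Tmem254b -3.40, Tmem254c -6.59, Gm29801 -3.77 and Gm29804 -4.55. For LOC100041599 (-11.3) and Ccl21b (-13.3) all 3 WT libraries were at 0, so these fitted values depend on the prior count and are no measure of size. Amd2 and the Tmem254 and Ccl21 genes belong to families of near-identical copies whose reads can be assigned to any copy.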

How the results depend on the processing

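The NEIL2 coefficient across all genes gave 209 calls, against 110 with no abundance trend, 125 with no NEIL1 covariate, 630 with DESeq2 and 628 with DESeq2 without the filter. It gave 493 at an adjusted p under 0.1, 597 with 12 libraries by title, 87 without both Neil1-/- replicate 2 and Neil1-/-Neil2-/- replicate 1, 50 in Neil1+/+ mice alone and 16 in Neil1-/- mice alone, and 69 to 215 with 1 library left out. Fewer libraries or more of them enter these last fits. DESeq2 called 206 of the 209 in the same direction and the fit without the NEIL1 covariate called 125 of them. No filter, median-ratio scaling, robust fitting, voom and the averaged interaction fit gave 301, 212, 218, 210 and 276. The cause of the differences between tools was not tested.

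Leaving out 1 library gave 15 to 48 calls for Neil2-/- against WT, 12 to 153 for Neil1-/-Neil2-/- against Neil1-/- (153 without Neil1-/-Neil2-/- replicate 2), 10 to 41 for the interaction and 28 to 79 for NEIL1. With no filter the 4 counts, in that order, were 64, 150, 22 and 106, since more genes were tested. Deviations from the genotype means correlated at -0.165 to 0.186 between same-numbered libraries and at -0.187 to 0.187 between differently numbered ones. In a genotype with 2 libraries the 2 deviations mirror each other. These correlations therefore cannot decide whether the numbers pair the mice. The replicate block gave 148 calls for the coefficient, 18 and 26 in the 2 backgrounds, and 5 lower chaperone genes.

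Within 20 Mb of Neil2 the 34 calls became 2 with a window of 5 Mb, 11 in Neil1+/+ mice alone, 2 in Neil1-/- mice alone, 17 without both libraries and 18 to 33 with 1 left out. The 6 higher clock output genes became 3 with no abundance trend, without both libraries and in Neil1+/+ mice alone, and 3 to 6 with 1 left out. The 9 lower chaperone genes became 4 with no abundance trend, 15 with DESeq2 with or without the filter, 3 without both libraries, 1 in Neil1+/+ and 0 in Neil1-/- mice alone (20 of the list were lower at an unadjusted p under 0.05 over all 10 libraries), and 4 to 8 with 1 left out. The 5 lower immediate early genes became 9 with no filter and with 12 libraries by title, 1 with no abundance trend and in Neil1+/+ mice alone, 0 in Neil1-/- mice alone, 3 without both libraries and 1 to 6 with 1 left out. The 2 cold-inducible genes became 1 in Neil1+/+ mice alone. Of the genes named with a coefficient only Amd2 changed sign, to -0.42 in Neil1-/- mice alone.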

Other observations

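The 2 libraries with conflicting labels belong to no group above, and their values are given alone. The library titled as Neil1-/- and labelled as Neil1-/-Neil2-/- had 3 counts of Neil2, 68.1 CPM of Esd, 5.79 CPM of Ciart, 70.9 CPM of Nr1d1, 25.1 CPM of Cirbp and 324.4 CPM of Hspa5. The library titled as Neil1-/-Neil2-/- and labelled as Neil1-/- had 0 counts of Neil2, 33.8 CPM of Esd, 33.5 CPM of Ciart, 219.8 CPM of Nr1d1, 44.3 CPM of Cirbp and 205.9 CPM of Hspa5. For comparison, Esd was at 27.96 to 35.3 CPM in the 5 libraries without NEIL2 and 60.9 to 75.8 CPM in the 5 with it, and Ciart at 23.9 to 36.3 and 7.17 to 11.1 CPM.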
